A study of Mus musculus with 6 samples.

Results

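The subcortical maternal complex and the proteins found with it were followed here through the mRNAs of 8 genes: Nlrp5, Tle6, Ooep and Khdc3 of the core, and Padi6, Zbed3, Nlrp2 and Nlrp4f as partners. The members were picked by name and make up 8 of the 25899 gene symbols in the deposited expression table. Of these, 7 were found under their current symbols. Khdc3 is listed under its older name 2410004A20Rik, which RefSeq for GRCm38.p6 pairs with Khdc3.

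The libraries came from oocytes of aged females (AF), CD1 mice of 58 weeks that had received 5 IU of pregnant mare serum gonadotropin 46 h before collection. Oocytes were isolated with IBMX at 100 µM, which holds them in prophase, stripped of their surrounding cells and cultured for 180 min without it, so that the nuclear envelope had broken down (NEBD). All were given cycloheximide, which stalls ribosomes on mRNA, at 0.1 mg/ml for 10 min. The lysate of 200 oocytes per sample was spread over a 10 to 50% sucrose gradient collected in 10 fractions. These were combined into a non-polysomal library (NP, free RNA and RNA on single ribosomes) and a polysomal library (P, RNA on several ribosomes), with 3 libraries of each. The question put to each mRNA is how it was divided between NP and P. The strain is called ICR in the study's methods, which also give a somewhat younger age than the 58 weeks of the sample records. The number of females behind a sample is not given in the sources used here. Libraries of young females were not analysed here, so nothing below compares ages.

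The subcortical maternal complex is a protein assembly that forms in the growing oocyte beneath its membrane and persists in the cleaving embryo. Its proteins are maternal effect products: embryos of mothers lacking Nlrp5, Tle6, Ooep or Padi6 stop dividing at an early cleavage stage. A fully grown oocyte is transcriptionally silent, so new protein can come only from stored mRNAs, many of which are recruited to or released from ribosomes as meiosis resumes. A cytoplasmic polyadenylation element (CPE) near the end of an mRNA, together with a polyadenylation signal, is a classical sequence through which this recruitment is controlled.

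The ends of the 8 mRNAs are shown because these elements lie there. Bases are taken from the GENCODE M21 transcripts (GRCm38), on the strand of the gene, with polyadenylation signals (AATAAA or ATTAAA) and CPEs (TTTTAT or TTTTAAT) in capitals. The last 100 bases of each transcript were searched on the sense strand, where a TTTTAAT may overlap an AATAAA. The windows lie at chr7:23441890-23441919 for Nlrp5, chr10:81590905-81590933 for Tle6, chr9:73104412-73104438 for Khdc3, chr4:140727358-140727387 for Padi6, chr13:95337812-95337841 for Zbed3, chr7:5298549-5298578 for Nlrp2 and chr13:65177119-65177148 for Nlrp4f, all in 3′ untranslated regions (3′UTR).
Nlrp5: caagaatgaAATAAAcacagcatttagaaa
Tle6: gttgcgtgtAATAAAacaattgaaatggc
Khdc3: aagtattctAATAAAaaaaaaattgca
Padi6: catagagccAATAAAgcatggtattctgaa
Zbed3: tttttTTTTAATAAAcTTTTATttatctgc
Nlrp2: atattggggAATAAAagggaaaacatgcat
Nlrp4f: gtgTTTTATATTAAAgaatagtagtcattt

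A polyadenylation signal was found in 7 of the 8 mRNAs, beside 80.1% of the 8315 tested genes with a 3′UTR of at least 100 bases. Ooep held neither element in this window. A CPE was found in 2 of the 8, Zbed3 and Nlrp4f, beside 19.3% of those genes. Zbed3 had 2 CPEs, one running into its polyadenylation signal. A match says only that these letters are present, and in the table as a whole genes with both a signal and a CPE (n = 1328) had a median P to NP log2 ratio of -0.87, and genes with a signal alone (n = 5329) one of -1.02.

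The annotated 3′ ends varied in length. In 5 of 8 the 3′UTR was below 336 bases, the lower quartile of the tested genes: 109 bases in Nlrp5, 130 in Tle6, 189 in Nlrp2, 221 in Padi6 and 246 in Khdc3. The 3′UTRs of Nlrp4f (582 bases), Zbed3 (1085) and Ooep (1446) were longer, against a median of 892 over the tested genes. Coding sequences ran from 495 bases in Ooep to 3336 in Nlrp5.

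The bases around the start codon are shown for the members that depart from the usual context and for 1 that does not, with the bases at -3, the ATG and the base at +4 in capitals. Positions are counted from 1 at the A of the ATG, with no position 0. A purine at -3 and a G at +4 favour recognition of a start codon. The contexts lie at chr10:81600076-81600088 (Tle6), chr13:95336061-95336073 (Zbed3), chr4:140742577-140742589 (Padi6) and chr9:78378525-78378537 (Ooep).
Tle6: atcttcTagATGA
Zbed3: gcagaaGgaATGA
Padi6: agcccaGccATGT
Ooep: gcttgcAgtATGG

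Of the 8 members, 7 had A or G at -3, beside 85.9% of 8658 tested genes, and Tle6 was the exception. A G at +4 was found in 5 of 8, beside 52.3% of those genes.

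All 8 mRNAs were measured above 0 in each of the 6 libraries and all passed the filter on low values (a mean above 1 FPKM in P or NP), which 10578 genes passed. FPKM, fragments per kilobase of exon, scaled to the mapped reads of the library, allows levels to be compared between genes. Depth was uneven: the number of reads that the FPKM steps imply was 1237805, 18072698 and 12127087 in NP replicates 1 to 3, and 163551, 1139299 and 1547543 in P replicates 1 to 3. The estimated reads behind a member ranged from 41 (Nlrp2 in P replicate 1) to 80499 (Zbed3 in NP replicate 2), so the members were well above the limit of detection. These reads came from amplified cDNA and are not independent molecules. The summed FPKM of all genes was also lower in P (246182 to 393876) than in NP (597261 to 633110), and 80.1% of the tested genes had an estimate below 0 for P against NP, with a median log2 ratio of -1.03 and quartiles of -1.83 and -0.22. Each member is therefore given both as deposited and relative to this median. FPKM are relative amounts, so less of an mRNA and more of the others cannot be told apart.

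**Figure D1:**
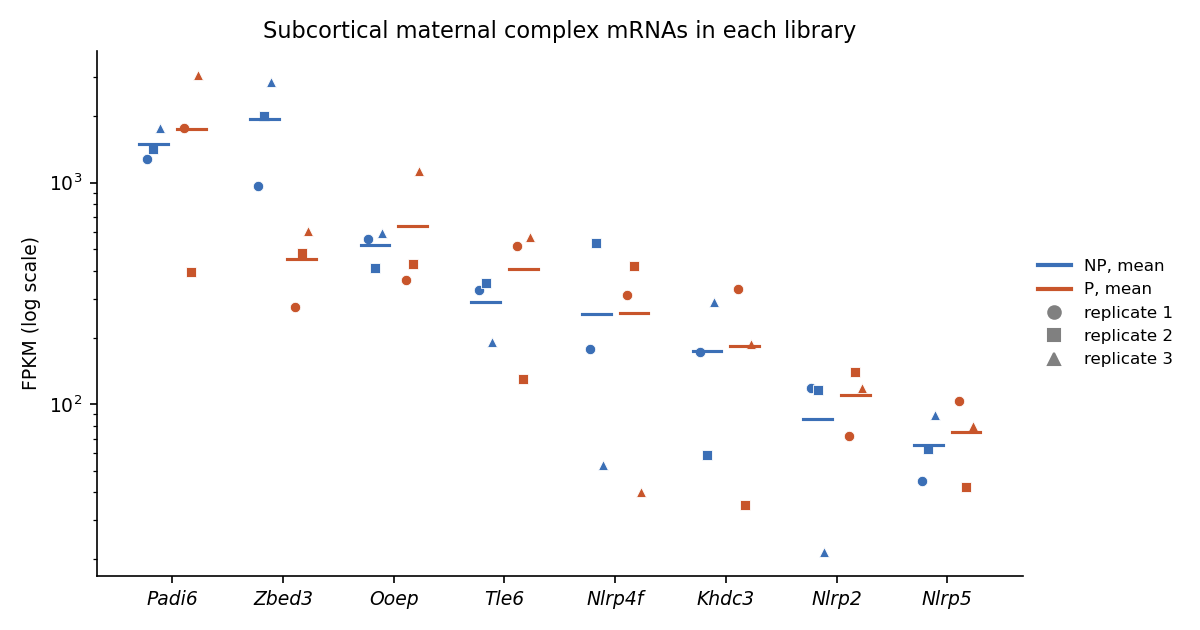
FPKM of each member on a log axis in the 3 NP and 3 P libraries of AF oocytes, 1 point per library. The groups overlap for 7 members, and for Zbed3 the highest P library (606 FPKM) lies below the lowest NP library (965 FPKM).

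Zbed3 was the member that passed the test, and it was lower in P. Its protein binds Axin in the Wnt pathway and was found as a component of the complex. Its gene lies on chr13:95323612-95337841, plus strand, in 2 exons. Here and below, positions are those of the GENCODE M21 gene, and exon counts are those of the transcript used above. It measured 965, 1996 and 2854 FPKM in NP replicates 1 to 3 and 274, 483 and 606 FPKM in P replicates 1 to 3. All P libraries were below all NP libraries. Its means were 1938 ± 946 FPKM in NP and 454 ± 168 FPKM in P (SD, n = 3 each). On the log2(FPKM + 1) scale the ratio of P over NP was -2.03, or 0.245 when transformed back, with a standard error of 0.56 (95% interval -3.20 to -0.86, adjusted p = 0.0922 by limma's moderated test over all tested genes, threshold 0.1). Between libraries of the same number it was -1.81, -2.05 and -2.23.

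That call has to be read against the table. The test called 1 of 8 members, beside 1.82% of all tested genes, 1.80% being lower and 0.0189% higher in P. With the replicate number as a block, which kept the call on Zbed3, 6.27% were called lower in P. A lack of overlap with P below NP, seen in 1 of 8 members, was seen in 23.2% of all tested genes. Relative to the median gene Zbed3 was lower in P by a smaller log2 difference of -1.0, and 20.3% of the genes tested had a ratio as low or lower. That difference was -0.35 without NP replicate 3, -1.52 without NP replicate 1 and -0.30 with a pseudocount of 0.1, and it was largest, -2.03, without a filter, where the median gene was at 0. Among the 1264 genes that were at least as abundant as the lowest member (Nlrp5, mean 70.5 FPKM), 28.5% had a ratio as low, 10.4% passed the test and the median log2 ratio was -1.24.

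The call on Zbed3 was close to the threshold and was kept under 3 of 22 other settings, while its ratio was below 0, and below that of the median gene, under all 22. These settings are not all separate checks of the sign. The filters, no trend, the replicate block and the stricter threshold leave a member's own ratio unchanged. Leaving out a library gives the same ratio whether or not the filter is recomputed. With the libraries rescaled by median of ratios, by quantiles or to a common FPKM sum, the ratio was -1.03, -1.04 and -1.10 and the adjusted p by limma 0.679, 0.650 and 0.691, respectively. The median gene was then at -0.44, 0.0027 and -0.50.

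The core members showed no such separation. NLRP5 (MATER) is the scaffold protein of the complex, and its gene lies on chr7:23385889-23441922, plus strand, in 16 exons. Nlrp5 measured 44.9, 62.8 and 89.3 FPKM in NP and 103.4, 42.3 and 80.0 FPKM in P. The P libraries thus held both its highest and its lowest value. Its log2 ratio was 0.16 with a standard error of 0.86 (interval -1.63 to 1.94, adjusted p = 0.937 by limma).

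Tle6 encodes a protein related to the Groucho family of transcriptional repressors that binds NLRP5 and OOEP. The gene lies on chr10:81590904-81601073, minus strand, in 14 exons. Tle6 measured 328, 351 and 191 FPKM in NP and 518, 129.6 and 569 FPKM in P. P replicate 2 stood below every NP library and the other P libraries above every NP library. The log2 ratio was 0.27 with a standard error of 0.70 (interval -1.19 to 1.72, adjusted p = 0.860 by limma).

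Ooep (FLOPED) encodes a small protein with a KH-like domain and lies on chr9:78376109-78378725, minus strand, in 3 exons. It measured 555, 413 and 595 FPKM in NP and 363, 427 and 1127 FPKM in P. P replicate 3 was the highest of the 6, and the other P libraries were among the lowest 3. The log2 ratio was 0.12 with a standard error of 0.61 (interval -1.14 to 1.38, adjusted p = 0.932 by limma).

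Khdc3 (FILIA) encodes a KH-domain protein known for its part in keeping the chromosome number of the early embryo. It lies on chr9:73101836-73104438, plus strand, in 3 exons. Its level was 172, 59.0 and 291 FPKM in NP and 329.7, 35.0 and 187 FPKM in P. Both replicate 2 libraries were far below the rest. The log2 ratio was -0.14 with a standard error of 0.89 (interval -1.98 to 1.69, adjusted p = 0.942 by limma). The gene span of Khdc3 overlaps that of Gm20509 on the same strand by 715 bases, and Gm20509 measured 9.05 to 94.6 FPKM. Whether these bases are exonic in both genes was not checked. If they are, reads could have been split between them.

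Padi6 encodes a peptidylarginine deiminase family protein required for the cytoplasmic lattices, fibrous stores of the oocyte to which the complex belongs. The gene lies on chr4:140727355-140742643, minus strand, in 16 exons. Padi6 measured 1280.4, 1419 and 1766 FPKM in NP and 1769.5, 395 and 3071 FPKM in P. The NP libraries differed by 1.38-fold from lowest to highest, and the P libraries by 7.77-fold, with P replicate 2 alone below NP. The log2 ratio was -0.19 with a standard error of 0.60 (interval -1.43 to 1.05, adjusted p = 0.884 by limma).

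Among the NLR partners, Nlrp2, which encodes an NLR protein needed for normal early development of the offspring, lies on chr7:5298547-5351035, minus strand, in 12 exons. It measured 119, 116 and 21.6 FPKM in NP and 71.9, 140.0 and 118 FPKM in P. NP replicate 3 was far below the other 5 libraries. Its log2 ratio of 0.65 was the highest among the members and had a standard error of 0.88 (interval -1.17 to 2.47, adjusted p = 0.699 by limma). The gene span of Nlrp2 overlaps that of Gm5065 on the opposite strand (6.26 to 69.8 FPKM) by 494 bases. Whether these bases are exonic in both genes was not checked. Without a stated strand setting in the counting, reads of any shared exon cannot be told apart.

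Nlrp4f, an NLR gene of the oocyte with several close paralogs, lies on chr13:65177111-65205977, minus strand, in 11 exons. It measured 178, 534 and 53.2 FPKM in NP and 309.8, 422 and 40.3 FPKM in P. It was lowest in both replicate 3 libraries and highest in both replicate 2 libraries. The span from lowest to highest, the widest among the members in either fraction, was 10.0-fold in NP and 10.5-fold in P, and the log2 ratio was 0.02 with a standard error of 0.93 (interval -1.90 to 1.94, adjusted p = 0.991 by limma). Because reads may have been shared with other Nlrp4 genes, its level is uncertain.

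**Figure D2:**
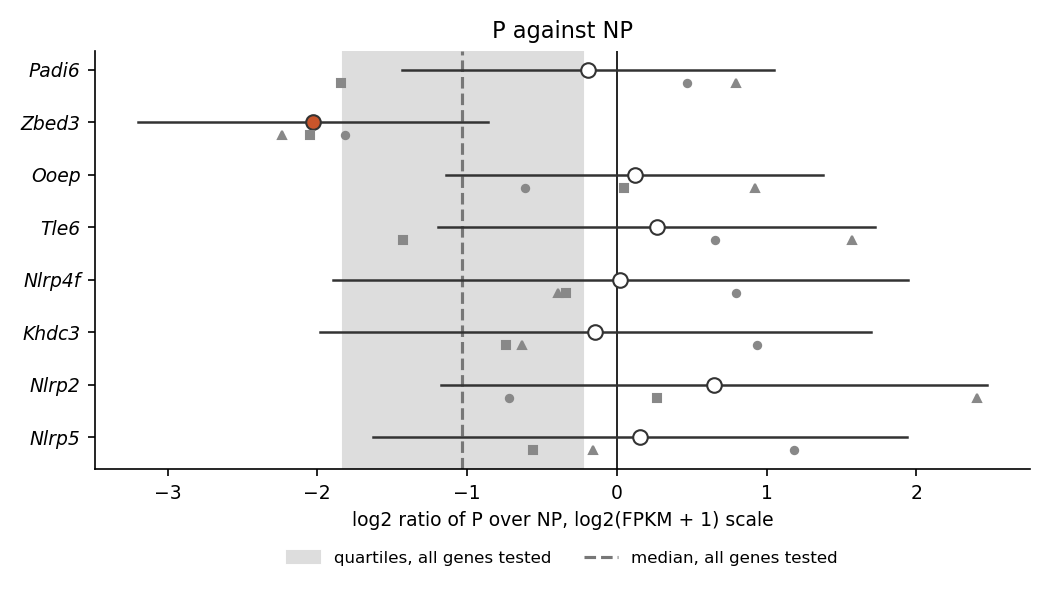
Log2 ratio of P over NP of each member on the log2(FPKM + 1) scale (large circle, filled in orange where past the threshold) with its 95% interval, the 3 differences between libraries of the same number (small grey symbols), and the median (dashed) and quartiles (grey band) of all 10578 tested genes. Zbed3 lies at -2.03 and the other 7 between -0.19 and 0.65, above the median gene at -1.03.

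On the deposited scale the other 7 members had a median log2 ratio of 0.12 and a range of -0.19 to 0.65. The median over all 8 was 0.07, against -1.03 over all tested genes. When 1 library was left out, the median over the 8 ran from -0.25 to 0.49. With the libraries rescaled by median of ratios, quantiles or a common FPKM sum, the median over the 8 was 1.07, 1.14 and 1.0, so that near-equal FPKM in P and NP holds only for the values as deposited. Relative to the median gene on the deposited scale, the log2 differences of the 7 were 1.19 (Nlrp5), 1.30 (Tle6), 1.15 (Ooep), 0.89 (Khdc3), 0.84 (Padi6), 1.68 (Nlrp2) and 1.05 (Nlrp4f). Each of these 7 thus lay above the median gene, from the 75.9th percentile of ratios for Padi6 to the 91.4th for Nlrp2. None of them passed the test, and their intervals, which reach from -1.98 to 2.47 on the log2 scale, do not show that they were equally divided. Their position above the median gene was kept in all 23 settings, the deposited scale included, for Nlrp5, Tle6, Ooep, Nlrp2 and Nlrp4f and in 22 for Khdc3 and Padi6, but the sign of the ratio itself changed in at least 1 setting for each of the 7.

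Levels differed widely between members. By mean log2(FPKM + 1) over the 6 libraries the order was Padi6 (10.43), Zbed3 (9.77), Ooep (9.07), Tle6 (8.27), Nlrp4f (7.45), Khdc3 (7.10), Nlrp2 (6.42) and Nlrp5 (6.08). This order pools the fractions, and it differed between them: by mean FPKM Zbed3 led in NP (1938 against 1488 for Padi6) and was below Ooep in P (454 against 639), being above Ooep in 3 of 3 NP libraries and 1 of 3 P libraries. In none of the 7 neighbouring pairs was one gene above the other in all 6 libraries. The nearest was Ooep over Tle6, in 5 of 6 libraries (two-sided exact sign-flip permutation test, p = 0.0938, adjusted p = 0.656 over 7 pairs). The test treats the 6 libraries as separate. Each lysate was divided into NP and P, so libraries of the same number may not be independent. The pairs were also ordered by the same levels that were tested. The other adjusted values were 0.656 to 0.719, and the smallest unadjusted p that 6 libraries allow is 0.03125, so a single pair could not have passed after adjustment and these p-values do not show that neighbours were alike.

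**Figure D3:**
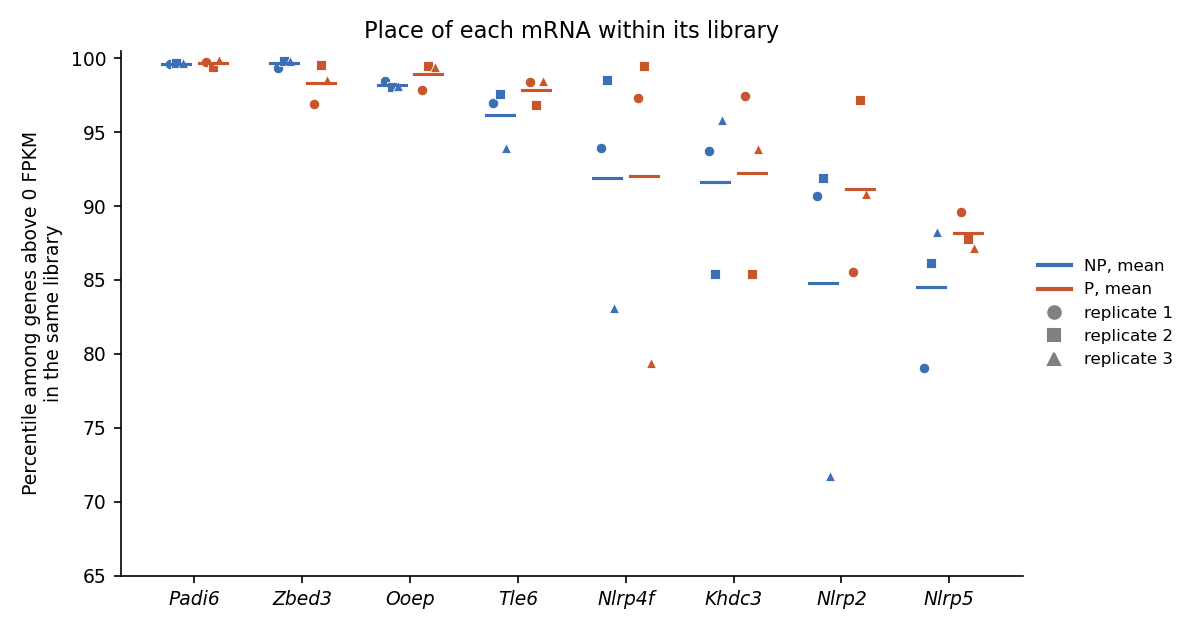
Percentile of each member among the genes above 0 in the same library, for the 3 NP and 3 P libraries. Padi6 stays between 99.4 and 99.9 in every library, whereas Nlrp2 ranges from 71.7 to 97.2.

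The place of a gene within its own library does not depend on how libraries are scaled. A percentile among the genes above 0 does depend on how many genes were detected, from 6247 in P replicate 1 to 13514 in NP replicate 2. Percentiles in NP and P are therefore not strictly comparable. Padi6 stood at the 99.4th to 99.9th percentile of the genes above 0, Ooep at the 97.9th to 99.5th and Tle6 at the 93.9th to 98.4th. Nlrp5, the lowest by mean log2 level, stood at the 79.1st to 89.6th, but was last among the members in 1 of 6 libraries only, and Nlrp2 fell further, to the 71.7th in NP replicate 3. Of the 48 placements of 8 members in 6 libraries, 36 were at the 90th percentile or higher. Zbed3 stood at a mean of 99.7 in NP and 98.3 in P, and here its groups overlapped: its place in P replicate 2 (rank 42) was above that in NP replicate 1 (rank 77).

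The make-up of the members' summed FPKM shifted with Zbed3. Together the 8 mRNAs made up 0.595, 0.782 and 0.981% of all FPKM in NP and 1.09, 0.843 and 1.47% in P. Zbed3 supplied 26.5, 40.3 and 48.7% of the members' sum in NP and 7.33, 23.3 and 10.4% in P, so that the nearest values were 26.5 and 23.3%. These shares rest on the same FPKM as the call on Zbed3 and add no separate support to it. No background was computed for them. Padi6 supplied 35.2, 28.7 and 30.1% in NP and 47.3, 19.0 and 53.0% in P, where P replicate 2 was the lowest of the 6. Within a library, Zbed3 lay above the mean of the other 7 by 2.04, 3.04 and 3.97 log2 units in NP, and its difference from them in P was -0.16, 1.65 and 1.10.

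**Figure D4:**
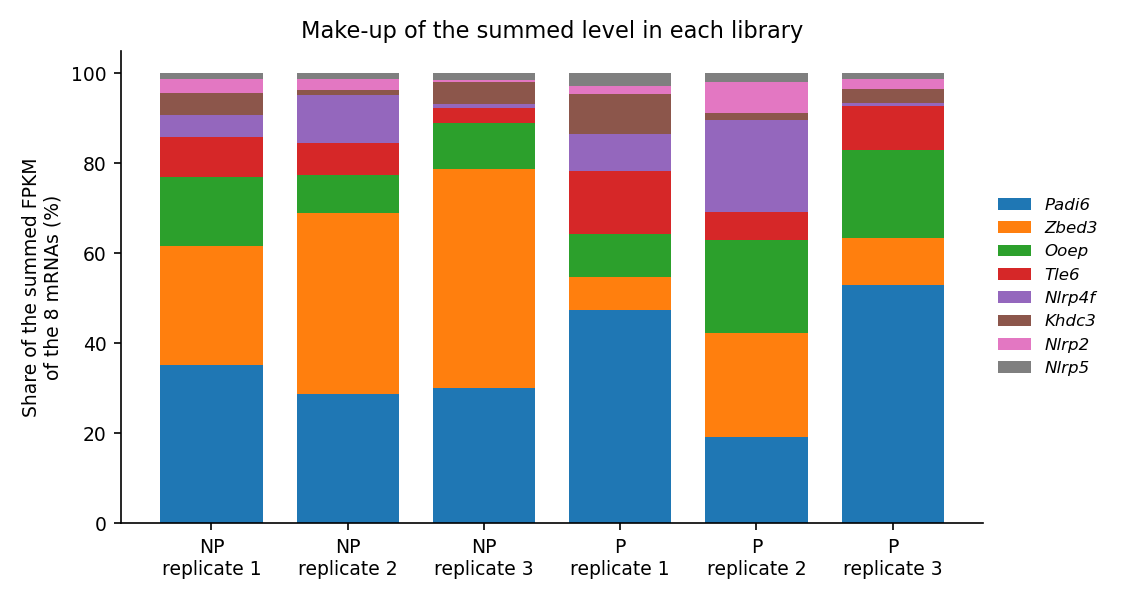
Share (percent) of each member in the summed FPKM of the 8 members, by library. Zbed3 takes 26.5 to 48.7% in NP and 7.33 to 23.3% in P, and Padi6 is the largest share in NP replicate 1 and in P replicates 1 and 3.

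The measured proportions of mRNAs of the core proteins, which bind one another, differed between libraries. No test set this against the counting and amplification error, and in P replicate 1 Nlrp5 rests on about 82 estimated reads. The ratio of Ooep to Tle6 ran from 1.18 to 3.12 in NP and from 0.700 to 3.30 in P, and that of Tle6 to Nlrp5 from 2.14 to 7.30 in NP and from 3.06 to 7.12 in P. The ratio of Ooep to Nlrp5 was at least 3.51 in every library. P replicate 2 was the lowest P library for Nlrp5, Tle6, Khdc3 and Padi6, but not for Ooep, Zbed3, Nlrp2 or Nlrp4f.

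Relatives of the members in the same libraries give them a frame. All 17 other NLR genes examined were listed, 3 of them at 0 in every library, and of the 10 tested 0 passed the threshold. The most abundant was Nlrp14, another oocyte NLR gene, at 458, 369 and 252 FPKM in NP and 780, 208 and 850 FPKM in P, above Nlrp5 in every library, and Nlrp1b, above 0 in NP replicate 2 alone, was the lowest among those above 0. Other Tle genes were below Tle6 in every library. The highest, the short family member Aes (Tle5), measured 165, 88.9 and 113 FPKM in NP and 4.33, 50.9 and 8.23 FPKM in P, and the lowest, Tle2, had a mean of 0.028 FPKM (0.0071 FPKM without NP replicate 1), with 0 of 3 tested genes past the threshold and a median log2 ratio of -1.53. Other Padi genes were near absent beside Padi6, the highest mean being 1.30 FPKM for Padi1 (0.49 FPKM without NP replicate 1) and the lowest 0.09 FPKM for Padi4 (0.02 FPKM without NP replicate 2), and 0 of 2 tested passed.

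The KH-domain relatives of Ooep and Khdc3 were abundant. Khdc1b had a mean of 561 FPKM and Khdc1c, the lowest of the 4, one of 66.2 FPKM, with 0 of 4 past the threshold and a median log2 ratio of 0.58. Zbed3 stood alone in its family, the others ranging from 3.01 FPKM (Zbed6) to 12.5 FPKM (Zbed5, listed as 2410018M08Rik) in their means, the latter resting on 63.8 FPKM in P replicate 2 and being 2.22 FPKM without it, with 0 of 3 past the threshold and a median log2 ratio of 0.63.

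**Figure D5:**
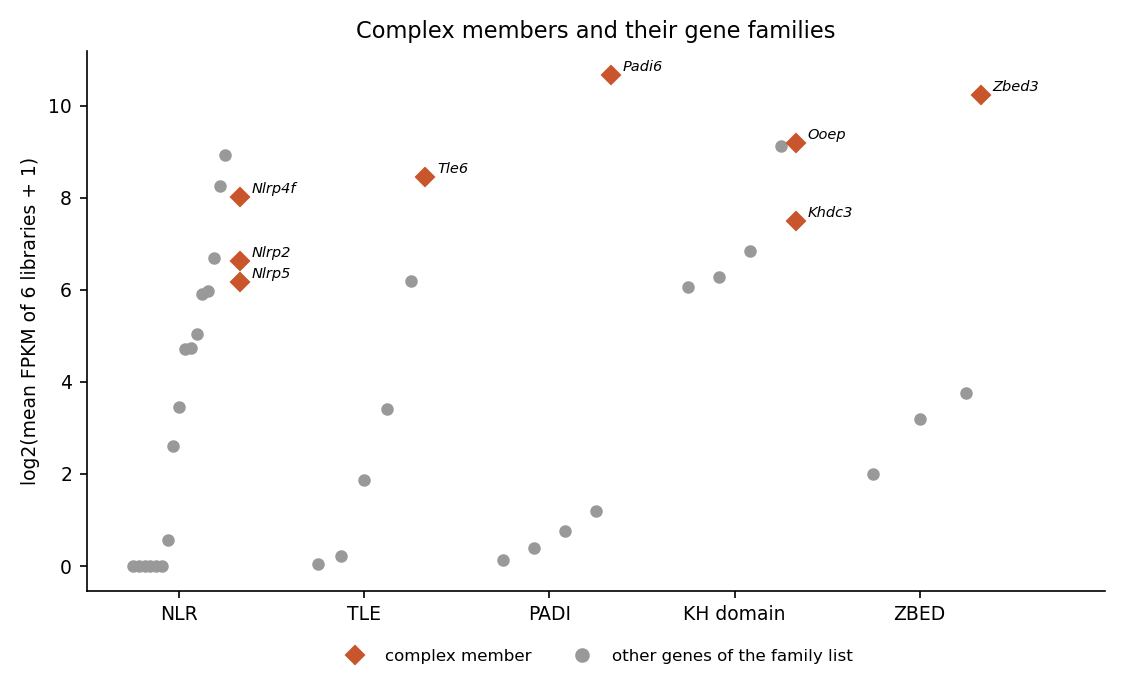
Mean FPKM over the 6 libraries (log axis) of the members and of their relatives by gene family. Padi6 and Zbed3 exceed every listed relative in their families, while Nlrp14 (486 FPKM) exceeds the NLR members.

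Genes whose proteins touch the complex or are mislocalised without it, 7 in all, gave 0 past the threshold and a median log2 ratio of -0.32. The highest was Plk1, a mitotic kinase, at a mean of 742 FPKM, or 473 FPKM without NP replicate 3 (log2 ratio -1.78, adjusted p = 0.17 by limma) and the lowest Tubg1, γ-tubulin, at 21.0 FPKM. Of 14 other maternal effect genes 0 passed, 12 had estimates below 0 and the median was -0.97, from Zar1 at 737 FPKM to Ctcf at 3.24 FPKM (2.02 FPKM without NP replicate 2). At an unadjusted p below 0.05 in the same limma fit, the counts in these lists were 1 of 7 (Plk1) and 0 of 14, and among the relatives above 1 of 3 Tle genes (Aes) and 0 of the 10 NLR, 2 Padi, 4 KH-domain and 3 Zbed genes, beside 1669 of all 10578 genes.

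Oocyte markers were abundant in the libraries. All 11 were tested, led by Gdf9 at a mean of 2751 FPKM with Figla lowest at 1.24 FPKM (0.79 FPKM without P replicate 2). Their sum was 12692 to 16439 FPKM in NP and 5148 to 15371 in P. Estimates were below 0 for 9 of 11, with a median log2 ratio of -0.81. The test called 1 of 11, beside 1.82% of all tested genes: the transcription factor Nobox, lower in P (log2 ratio -3.13, adjusted p = 0.06 by limma). At an unadjusted p below 0.05 in that limma fit the count was 3 of 11 (Zp1, Zp3 and Nobox). Of 18 granulosa and cumulus markers 9 were at 0 in all libraries, Foxl2, Amh and Fshr among them. Their sum was 11.2 to 131 FPKM in NP and 2.65 to 16.5 in P, with Cyp19a1 the highest (mean 24.9 FPKM, or 9.02 FPKM without NP replicate 3) and Ptgs2, above 0 in P replicate 2 alone, the lowest above 0 (0.035 FPKM). Of these markers, 3 were tested and 0 passed, with Cyp19a1 at an unadjusted p below 0.05 in the limma fit. The part of the granulosa markers in the members' values was not tested. The 5 blood markers matched were at 0 throughout.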

How the data were processed

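RNA of the NP and P fractions was rRNA-depleted, amplified by whole transcriptome amplification and made into Nextera libraries. Per the submitters' processing notes and methods, the authors trimmed reads (Trim Galore 0.4.1), mapped them to GRCm38 (HISAT2 2.0.5) and deposited FPKM per gene from Seqmonk. Neither strand setting nor annotation release is stated in the sources used here. The table holds 25965 entries, in which 58 symbols recur. For these the entry with the highest mean was used.

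Samples were grouped by their titles. P was set against NP for all genes with limma 3.58.1 (R 4.3.3) applied to log2(FPKM + 1), two-sided, letting the spread follow the level, for genes with a mean above 1 FPKM in P or NP, with Benjamini-Hochberg adjustment and a threshold of 0.1. Fold changes on this scale understate those of low genes. No source says that the 3 samples came from separate animals, so p-values measure the spread between these libraries. An exact test of 3 against 3 for 1 gene cannot go below p = 0.1.

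Depth was estimated from the FPKM steps of low genes with GENCODE M21 exon lengths. Of these low values 58.2 to 65.5% came out whole within 0.02 reads, so no count test was run and estimated reads are approximate. For 2 kb of exon, 3 reads correspond to 0.0830 to 1.21 FPKM in NP and 0.969 to 9.17 FPKM in P.

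Members and lists were chosen with earlier results of these data known. All members were named, with the highest, the lowest above 0 and any gene past the threshold from each list. The fits were tested on simulated data. Alternatives were pseudocounts, filters, rescalings, no trend, a replicate block, a stricter threshold and leaving out each library.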

Additional observations from a re-analysis of the deposited data

How the results depend on the processing

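Zbed3 had a ratio below 0 in all 22 alternatives (-2.47 to -1.03), but its call depended on them, with adjusted p from 0.0352 to 0.691. With 1 member past the threshold as reported, the count was 0 with pseudocounts of 0.1 or 5, without a filter, under each rescaling (median of ratios, quantile, common FPKM sum), without a trend and at a threshold of 0.05. It ranged from 0 to 1 when a library was left out, being 1 only without P replicate 3 with the filter recomputed. The count over all genes, 192, became 69 with a pseudocount of 0.1, 1 without a filter, 3 under median of ratios, 4 under quantile, 6 under a common sum, 15 without a trend and 65 at 0.05. It ranged from 0 to 331 without 1 library: 4 without NP replicate 1, 12 without NP replicate 2, 1 without NP replicate 3, 240 without P replicate 1, 156 without P replicate 2 and 331 without P replicate 3 (with the original filter, 55 without P replicate 3 and 0 otherwise). The count over all genes was mostly of genes lower in P (190 of 192), but only 1 of 3 under median of ratios and 2 of 4 under quantile.

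The median ratio of the members, 0.07, became 1.07 (median of ratios), 1.14 (quantile) and 1.0 (common sum), where the ratios of Khdc3 (0.84, 0.81 and 0.78) and Padi6 (0.81, 0.62 and 0.74) turned positive. Without 1 library the ratios ran from -0.12 to 0.52 (Nlrp5), -0.11 to 0.95 (Tle6), -0.39 to 0.43 (Ooep), -0.81 to 0.79 (Khdc3), -0.82 to 0.66 (Padi6), -0.15 to 1.06 (Nlrp2), -0.82 to 1.07 (Nlrp4f) and -2.47 to -1.68 (Zbed3). Of 176 values, 123 kept direction and side, 19 lost the call and 34 changed sign. Many of these values repeat the same ratio, because several settings cannot change it. In the order of levels, 0 to 1 neighbouring pair had the same sign in every remaining library when 1 was left out, the 1 (without P replicate 1) being a description and not a test. With the original filter, estimates changed sign within those ranges: Nlrp5 was at -0.085 without NP replicate 1, Tle6 at -0.0090 without NP replicate 3 and -0.043 without P replicate 1, Ooep at -0.039 without NP replicate 2, Khdc3 at 0.36 without NP replicate 3, and Nlrp4f at -0.39 without P replicate 1 and -0.61 without P replicate 2. The causes were not tested.

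By design the fractions of each sample were divided into NP and P, but the sources used here do not say that equal numbers mark the same sample. The main fit did not use this pairing. Same-numbered NP and P libraries deviated together weakly (correlations of 0.0634, 0.0991 and 0.116, others -0.0886 to 0.0208), each library best with its own number. That the numbers match is thus a hint from the data. With the replicate block, Zbed3 kept its call (-2.03, standard error 0.53, adjusted p = 0.0352 by limma), no other member gained one, and 668 genes passed, 663 of them lower in P.

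Depth limits the P side most: P replicate 1 rests on about 163551 reads, with 41 to 733 behind each member.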

Other observations

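The genes whose level followed the mean of the members' log2(FPKM + 1) most closely over the 6 libraries, among 6454 compared, were Mta3 (Pearson r = 0.990), Nhlrc2 (0.985), Rap1b (0.978), Hist2h4 (0.976) and Slc10a3 (0.969). They are the highest of these values over only 6 libraries, which differ widely in depth, and are given as a description. Mta3, a subunit of a nucleosome remodelling complex, had a mean of 97.2 FPKM and Rap1b, a small GTPase, one of 38.3 FPKM.

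The members did not follow one another evenly. Against the mean of the other 7 over the 6 libraries, r was 0.78 for Tle6, 0.72 for Padi6, 0.40 for Nlrp5, 0.06 for Khdc3, 0.02 for Ooep, -0.35 for Zbed3, -0.42 for Nlrp2 and -0.66 for Nlrp4f.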
